A study of Mus musculus with 6 samples.

Results

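Aminoacyl-tRNA synthetases are the enzymes that join each amino acid to its transfer RNA. Their genes were compared between 3 whole-thymus arrays of CD2-Myc/CD2-Runx2 mice (RUNX2/MYC) and 3 arrays of C57/CBA mice (WT), all taken at 10 days of age. In the RUNX2/MYC mice, which have the background C57BL6/CBA, the locus control region of CD2 expresses a MYC and a RUNX2 transgene in lymphoid cells, and the study describes an expanded premalignant population in their thymus. The methods name littermates as controls for strain. Mice with 1 of the transgenes alone were not analysed here, so the part of each transgene cannot be told apart. The members were 36 genes listed by name, 20 for the cytosol and 16, with names ending in 2, for mitochondria. A gene was measured where a probe set pairs with its symbol alone, and of several such probe sets the brightest was taken. This held for 34 of the 36, 18 cytosolic and 16 mitochondrial, of 19938 genes measured in this way on the array. Aars, whose probe set is shared with another gene, and Dars have no probe set of their own. The annotation names Mars as Mars1.

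A synthetase first activates its amino acid with ATP and then transfers it to the end of the matching tRNA, so that the ribosome receives the residue that the codon asks for. The nucleus encodes separate enzymes for the cytosol and for the protein synthesis of mitochondria, except that Gars and Kars each give both forms from 1 gene and Eprs joins glutamyl and prolyl activities in 1 cytosolic protein. Several cytosolic enzymes are held with non-catalytic scaffold proteins in a multisynthetase complex. Many cytosolic synthetase genes are known targets of MYC and of ATF4, the transcription factor of the amino acid response, and dividing thymocytes need both systems of translation.

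The promoter sequences of 5 members are shown because their genes carry either the largest value of a compartment or a match to 1 of 3 short motifs searched. Each is the 250 bases before the transcription start in GRCm38.p6, from RefSeq, read 5′ to 3′ on the strand of the gene, and capitals mark a motif match on either strand. Positions give the first base of a match, with 0 for the first base of the gene. The motifs were CACGTG, the E-box that MYC binds, TGATGNAA, a core of ATF4-type sites, and TGTGGT, a RUNX-type site. They do not overlap one another in these windows.
Gars, chr6:55037751-55038000, + strand, with an ATF4-type core at -30: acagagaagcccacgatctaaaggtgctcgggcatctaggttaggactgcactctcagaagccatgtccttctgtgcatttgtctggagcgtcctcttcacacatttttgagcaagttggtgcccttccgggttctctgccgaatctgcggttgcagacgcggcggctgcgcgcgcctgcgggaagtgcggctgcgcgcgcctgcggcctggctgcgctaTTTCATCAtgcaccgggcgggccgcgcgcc
Tars, chr15:11399659-11399908, - strand, with an ATF4-type core at -15: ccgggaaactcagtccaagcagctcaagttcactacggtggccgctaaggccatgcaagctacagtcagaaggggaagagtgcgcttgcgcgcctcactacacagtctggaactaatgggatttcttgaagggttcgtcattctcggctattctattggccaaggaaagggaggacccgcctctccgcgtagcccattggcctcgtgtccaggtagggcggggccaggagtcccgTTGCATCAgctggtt
Iars, chr13:49681880-49682129, + strand, with an E-box at -69: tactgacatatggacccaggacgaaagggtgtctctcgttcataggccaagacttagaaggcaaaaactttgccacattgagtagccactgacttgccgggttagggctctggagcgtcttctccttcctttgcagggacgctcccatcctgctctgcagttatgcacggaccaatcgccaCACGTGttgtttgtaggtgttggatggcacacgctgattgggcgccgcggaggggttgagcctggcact
Farsb, chr1:78488898-78489147, - strand, with an E-box at -39: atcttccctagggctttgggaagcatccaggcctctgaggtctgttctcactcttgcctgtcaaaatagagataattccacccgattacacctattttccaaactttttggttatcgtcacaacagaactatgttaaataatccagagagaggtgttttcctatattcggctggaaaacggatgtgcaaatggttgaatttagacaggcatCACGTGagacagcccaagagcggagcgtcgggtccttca
Yars2, chr16:16302715-16302964, + strand, with a RUNX-type site at -218: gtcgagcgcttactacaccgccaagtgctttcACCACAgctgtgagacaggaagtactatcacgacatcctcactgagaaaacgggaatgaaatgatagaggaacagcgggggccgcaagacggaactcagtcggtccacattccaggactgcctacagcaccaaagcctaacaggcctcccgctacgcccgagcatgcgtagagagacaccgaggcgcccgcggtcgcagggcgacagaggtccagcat

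Over windows that also hold the 50 bases after the start, the E-box was found in 3 of 11 cytosolic members with a RefSeq window (27.3%) and in 1 of 14 mitochondrial ones (7.14%), against 7.15% of all 32851 promoter windows. These were Farsb, Iars and Tars, in which it lies at 19, and mitochondrial Ears2, with 21. The ATF4-type core was found in 4 of the 11 cytosolic windows (Gars, Tars, Iars and Yars; 36.4%), in 0 of the 14 mitochondrial ones and in 3.97% of all windows. In Iars and Yars it lies after the start, at 7 and 3. The RUNX-type letters TGTGGT were found in Yars2 alone of the 25 members, and in 16.8% of all windows. Other forms of a RUNX site were not searched, so members without these letters may hold one. A match says only that these letters are there.

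The arrays report log2 signals after RMA, with array medians from 7.31 to 7.49. The probe set of Runx2 had log2 signals of 11.73, 11.78 and 11.96 on RUNX2/MYC replicates 1 to 3 and of 7.94, 7.94 and 7.93 on WT replicates 1 to 3, so that the Runx2 signal went with the genotype labels. The mouse Myc probe set did not pass, with -0.48 as log2 difference (adjusted p = 0.119). The tissue label was checked by 14 T-lineage markers, whose summed level overlapped between RUNX2/MYC (log2 15.44 to 15.65) and WT (15.60 to 15.75). Each sum of markers adds linear signals and is given as log2, so the brightest markers weigh most. Single markers of this list differed without overlap, with log2 fold changes of -0.74 for Cd4, -0.62 for Rag1, -0.55 for Rag2 and -0.52 for Dntt, and of 0.32 for Cd3d and 0.30 for Zap70, though none passed (adjusted p from 0.091 to 0.211). The sum over 12 markers of thymic epithelium was lower in every RUNX2/MYC array (13.76 to 13.95) than in WT (14.18 to 14.35), with 8 single markers lower without overlap. That over 8 B-lineage markers was lower by a narrow gap (10.57 to 10.78 against 10.79 to 10.92), with 1 marker lower without overlap. Over all genes 11.2% were lower and 15.5% higher without overlap. The sums over 12 markers of dendritic cells and macrophages and over 9 of fibroblasts and endothelium overlapped between the groups. Of their single markers 10 of the 12 and all 9 had negative values, with 5 and 3 lower without overlap. No marker of the epithelial and B-lineage lists or of these 2 lists passed. The sum over 4 erythroid markers was higher (10.56 to 11.57 against 9.83 to 10.12), but the markers differed. Epor passed (log2 fold change 1.39, adjusted p = 0.0097 from limma). Alas2 (1.17, adjusted p = 0.169) and Slc4a1 (0.64, adjusted p = 0.259) did not, and Klf1 had -0.087. Adipocyte markers stood out in RUNX2/MYC replicate 2 (12.57 against 11.04 to 11.30 in the other 5 arrays). In whole organ RNA fewer cells of a type and less RNA per cell cannot be told apart, and the part of these shifts in the synthetase values was not tested.

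All 34 measured synthetase genes had a higher mean signal in RUNX2/MYC than in WT thymus, as had 40.2% of all genes. With limma and a threshold of 0.05 for p adjusted over all probe sets, 7 passed as higher, namely Gars, Rars, Kars, Sars, Eprs and Lars of the cytosol and Yars2 of mitochondria. That is 6 of 18 cytosolic and 1 of 16 mitochondrial genes, against 2.27% of all genes measured. None was lower, where 0.0953% of all genes were, and none had a negative log2 fold change at any p. The median log2 fold change was 0.48 over the cytosolic genes and 0.33 over the mitochondrial ones, against -0.065 over all 19938 genes. In all 18 cytosolic and in 12 of the 16 mitochondrial genes every RUNX2/MYC array lay above every WT array, which was so for 15.5% of all genes, while the opposite order, seen for 11.2% of all genes, occurred in no member. At an unadjusted p under 0.05 all 18 cytosolic and 11 of the 16 mitochondrial genes were higher, against 13.2% of all genes. With the per-gene test and q values that the methods name, 9 cytosolic and 4 mitochondrial genes were higher at a q under 0.05, among them the same 7, against 4.11% of all genes.

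**Figure D1:**
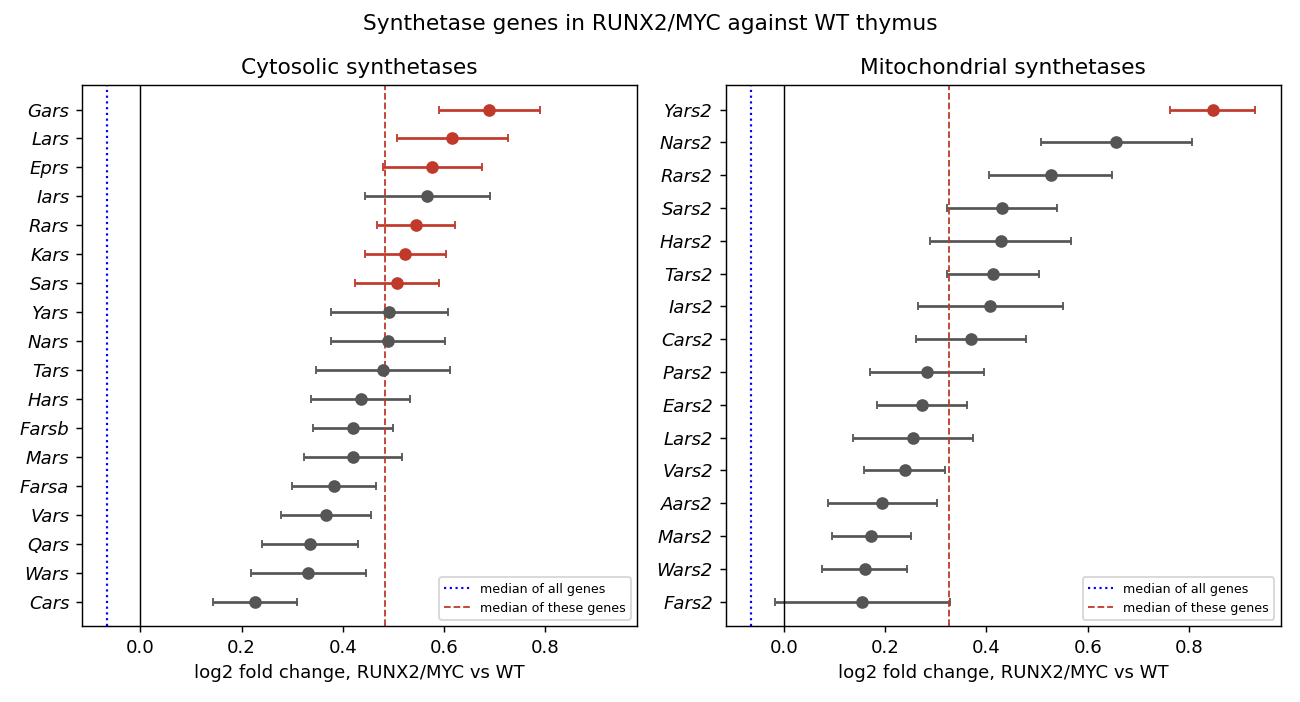
Log2 fold change between RUNX2/MYC and WT thymus for the 18 cytosolic (left) and 16 mitochondrial (right) synthetase genes. Points are genes with their standard error from limma, red where the adjusted p was under 0.05, the red dashed line is the median of the panel (0.48 and 0.33) and the blue dotted line that of all genes (-0.065), which lies left of every point.

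Of the enzymes of the multisynthetase complex, Rars, which charges arginine tRNA, had log2 signals of 11.13, 11.18 and 11.13 in RUNX2/MYC replicates 1 to 3 and of 10.61, 10.59 and 10.60 in the WT replicates. The groups were far apart beside their spread (11.15 ± 0.027 against 10.60 ± 0.0085, SD, n = 3 each), and Rars rose by 0.54 on the log2 scale (standard error 0.077, adjusted p = 0.0267). Kars, the lysyl enzyme of both compartments, had 9.82, 9.91 and 9.86 against 9.37, 9.31 and 9.33, and rose by 0.52 (standard error 0.080, adjusted p = 0.0318). As in Rars, no array came near the other group.

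Lars, the leucyl enzyme, had log2 signals of 9.52, 9.63 and 9.80 in RUNX2/MYC and of 8.93, 9.03 and 9.14 in WT thymus. It rose by 0.62, the second largest value of the cytosolic genes, with a wider spread (standard error 0.11, adjusted p = 0.0465). Eprs, which charges glutamate and proline tRNAs, had 10.25, 10.27 and 10.38 against 9.61, 9.71 and 9.85, and rose by 0.58 (standard error 0.097, adjusted p = 0.0417). In both genes WT replicate 3 was the highest WT array, and it still lay below the lowest RUNX2/MYC array.

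Outside the complex, Gars, the glycyl enzyme of cytosol and mitochondria, had the largest cytosolic value. Its log2 signals were 10.96, 10.93 and 10.97 in RUNX2/MYC and 10.18, 10.19 and 10.43 in WT, and it rose by 0.69 on the log2 scale or 1.61-fold (standard error 0.099, adjusted p = 0.0278). The RUNX2/MYC arrays were close to one another (SD 0.024), and WT replicate 3 stood above the other WT arrays. Sars, the seryl enzyme, had 10.64, 10.75 and 10.76 against 10.18, 10.20 and 10.26, and rose by 0.51 (standard error 0.083, adjusted p = 0.0384).

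The other 12 cytosolic genes did not pass, with adjusted p from 0.054 to 0.199, though none overlapped between the groups. The largest of these values was that of Iars, the isoleucyl enzyme, with log2 signals of 10.69, 10.88 and 10.89 against 10.07, 10.24 and 10.46 (log2 fold change 0.57, standard error 0.12, adjusted p = 0.0767). For a dimmer probe set of Iars the value was 0.53 (adjusted p = 0.0789). Yars, the tyrosyl enzyme, had 9.52, 9.89 and 9.76 against 9.21, 9.18 and 9.30 (0.49, adjusted p = 0.0899). Nars, the asparaginyl enzyme, had 10.75, 10.82 and 10.83 against 10.14, 10.30 and 10.50 (0.49, adjusted p = 0.085). In Iars and Nars the WT arrays were spread over more than in the called genes, with SDs of 0.19 and 0.18. Both chains of the phenylalanyl enzyme had like values, 0.38 for the catalytic chain gene Farsa (adjusted p = 0.0752) and 0.42 for Farsb (adjusted p = 0.054), which lay next to the threshold. Tars (0.48), Hars (0.44), Mars (0.42), Vars (0.37), Qars (0.34), Wars (0.33) and Cars (0.23) filled the range below, and Cars, the cysteinyl enzyme, had the smallest value of the cytosolic genes (standard error 0.083, adjusted p = 0.199).

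**Figure D2:**
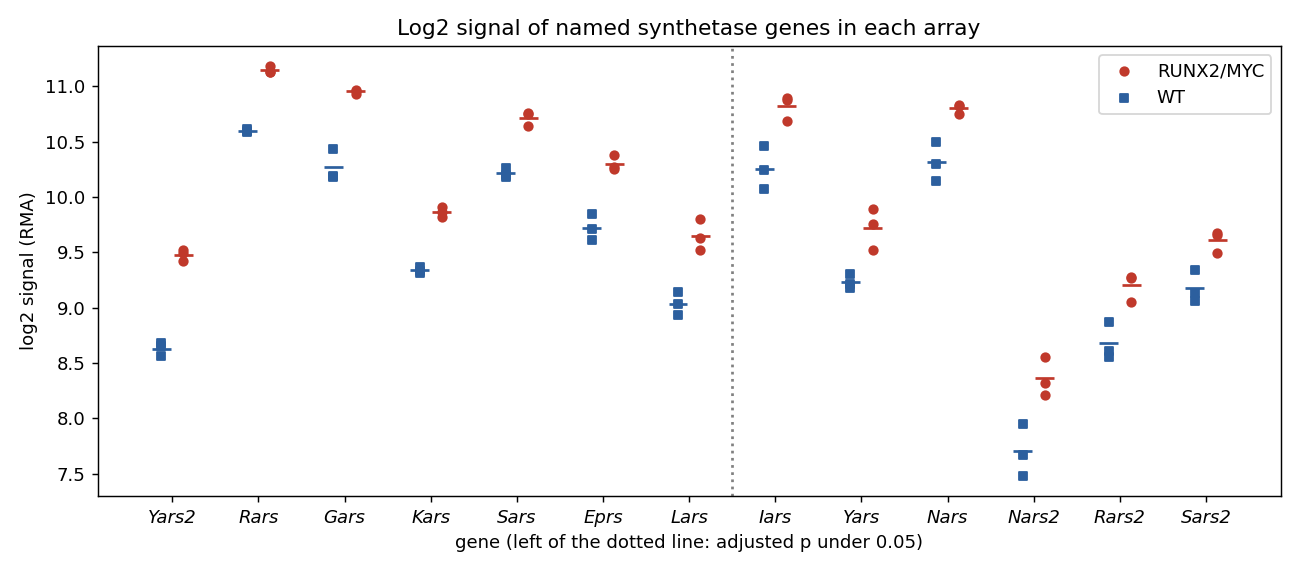
Log2 signal (RMA) in each array of the 7 synthetase genes past the threshold, left of the dotted line and in order of adjusted p, and of the 3 cytosolic and 3 mitochondrial genes with the largest log2 fold change among those not past it. Red circles are the 3 RUNX2/MYC arrays, blue squares the 3 WT arrays and bars group means, and no gene shown has a RUNX2/MYC array at or below a WT array.

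Among the mitochondrial enzymes Yars2, which charges tyrosine tRNA in the organelle, had the largest value of all 34 genes. Its log2 signals were 9.42, 9.52 and 9.49 in RUNX2/MYC and 8.56, 8.65 and 8.68 in WT thymus (9.48 ± 0.053 against 8.63 ± 0.063, SD, n = 3 each). The difference was far larger than these SDs, at 0.85 on the log2 scale or 1.80-fold (standard error 0.084, adjusted p = 0.0145 from limma).

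The next 3 mitochondrial values did not pass. Nars2, the asparaginyl enzyme, had log2 signals of 8.21, 8.32 and 8.55 against 7.48, 7.67 and 7.95, a log2 fold change of 0.66 with a wide spread in both groups (standard error 0.15, adjusted p = 0.0839). Rars2, the arginyl enzyme, had 9.05, 9.28 and 9.27 against 8.55, 8.61 and 8.87 (0.53, standard error 0.12, adjusted p = 0.0848). Sars2, the seryl enzyme, had 9.49, 9.66 and 9.67 against 9.34, 9.13 and 9.06 (0.43, standard error 0.11, adjusted p = 0.104). In Sars2 the gap between the groups was small, since WT replicate 1 lay at 9.34.

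Of the other mitochondrial genes Hars2 (0.43), Tars2 (0.41), Iars2 (0.41), Cars2 (0.37), Pars2 (0.28), Ears2 (0.27), Lars2 (0.26), Vars2 (0.24), Aars2 (0.19), Mars2 (0.17), Wars2 (0.16) and Fars2 (0.15) had adjusted p from 0.0782 (Tars2) to 0.583 (Fars2). The groups overlapped in Aars2, Fars2, Iars2 and Lars2. Fars2, the phenylalanyl enzyme, varied as much within the groups as between them, with 8.47, 8.80 and 8.91 in RUNX2/MYC and 8.28, 8.60 and 8.82 in WT thymus. Mars2 and Wars2, the methionyl and tryptophanyl enzymes, had small values without overlap, 8.74 to 8.78 against 8.56 to 8.63 and 8.20 to 8.35 against 8.09 to 8.16.

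The cytosolic and mitochondrial groups were set against each other in each array. Taken from the WT mean of each gene, the median over the cytosolic genes was 0.41, 0.54 and 0.50 in RUNX2/MYC replicates 1 to 3 and -0.080, -0.015 and 0.090 in WT replicates 1 to 3. For the mitochondrial genes it was 0.21, 0.42 and 0.36 against -0.048, -0.013 and 0.067. Both medians were lowest in RUNX2/MYC replicate 1 and highest in WT replicate 3 within their groups, and the medians over all genes lay between -0.076 and 0.033. The cytosolic median was above the mitochondrial one by 0.12 to 0.20 in the RUNX2/MYC arrays and differed from it by -0.033 to 0.024 in the WT arrays. As medians of the log2 fold changes the difference was 0.16, with no test since the genes were chosen with results known.

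**Figure D3:**
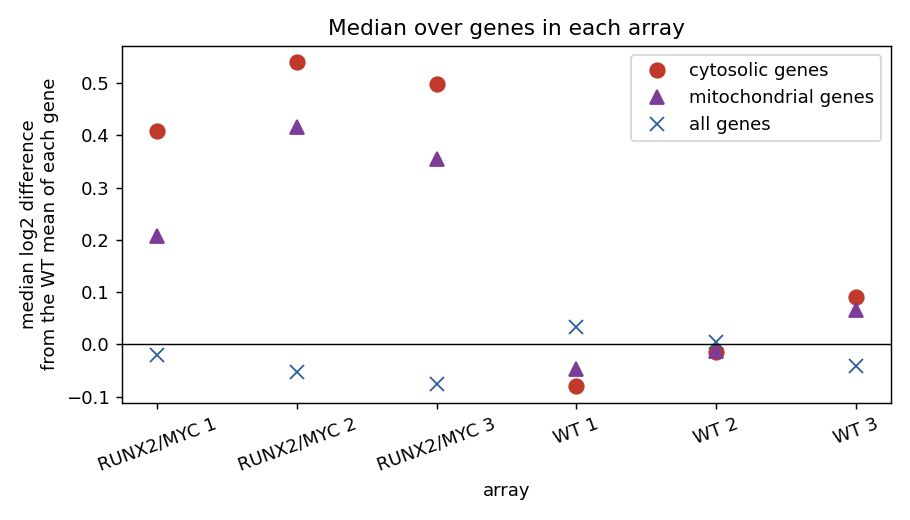
Median, over the 18 cytosolic genes (red circles), the 16 mitochondrial genes (purple triangles) and all genes (blue crosses), of the log2 difference from the WT mean of each gene, in each array. In the RUNX2/MYC arrays the cytosolic median (0.41 to 0.54) lies above the mitochondrial one (0.21 to 0.42), and in the WT arrays both lie near 0.

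The cytosolic probe sets were brighter than the mitochondrial ones, and the change of all genes varied with signal. Over the 2309 genes whose mean log2 signal lay in the interquartile range of the cytosolic genes (9.47 to 10.52), the median log2 fold change was 0.14, and it was 0.14 over the 3148 genes in that of the mitochondrial ones (8.17 to 9.12). Of these genes 5.67% and 4.61% were called higher, and 76.5% and 71.2% had a positive value, so that a positive value was more common at these signals than over all genes. The difference between the compartments was 0.076 after quantile normalization and 0.064 after cyclic loess.

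For 12 amino acids a cytosolic and a mitochondrial gene of the same residue were both measured, and the log2 signal of the mitochondrial gene was taken from that of the cytosolic one in each array. The cytosolic gene had the larger log2 fold change in 9 of the 12 and the mitochondrial gene in 3. Lars and Lars2 differed most in the first direction: relative to the WT mean their difference was 0.46, 0.20 and 0.42 in RUNX2/MYC replicates 1 to 3 and -0.13, -0.01 and 0.14 in the WT replicates, so that the change of Lars was larger by 0.36 on the log2 scale. Yars and Yars2 went the other way, with -0.50, -0.23 and -0.33 against 0.05, -0.07 and 0.02, a difference of -0.36. In both pairs the groups did not overlap, nor did they for Iars and Iars2 (0.16), Mars and Mars2 (0.25) or Nars and Nars2 (-0.17). These 5 pairs reached the smallest p that 3 against 3 arrays allow (exact permutation test, two-sided, p = 0.1, or 0.229 after Benjamini-Hochberg adjustment over the 16 pairs computed), so none passes a threshold of 0.05.

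In the other 7 pairs the groups overlapped, and a difference was not detectable with these arrays. Hars and Hars2 had log2 fold changes of 0.44 and 0.43, and Rars and Rars2 of 0.54 and 0.53, so that the values of each pair were nearly equal even though Rars alone passed the limma test. Sars and Sars2 differed by 0.076 and Tars and Tars2 by 0.066, both below the SD of their own difference in WT thymus (0.18 and 0.17). The pairs that are not one to one were also computed. Eprs changed more than Ears2 by 0.30 and more than Pars2 by 0.29, without overlap in either (exact permutation test, p = 0.1), and Farsa and Farsb differed from Fars2 by 0.23 and 0.27, with overlap.

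**Figure D4:**
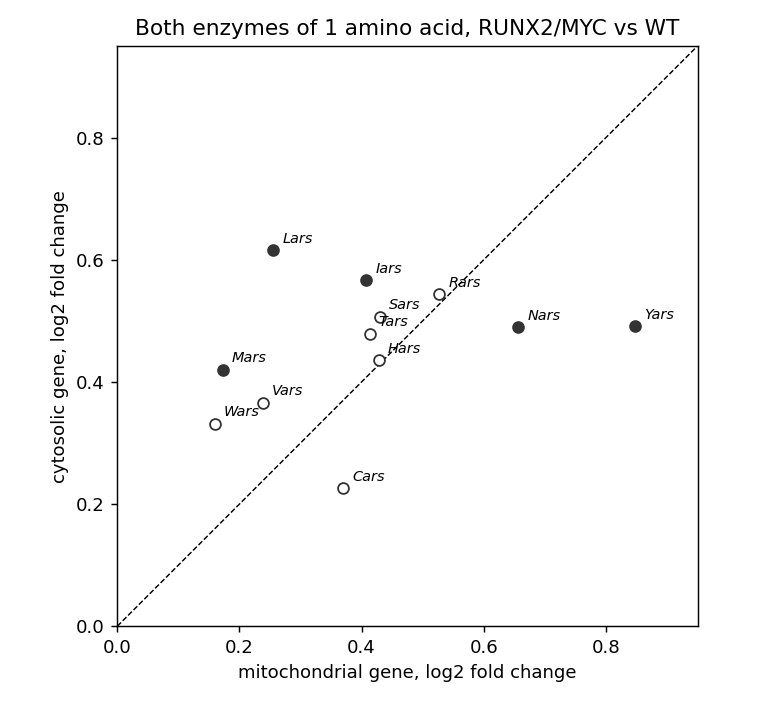
Log2 fold change between RUNX2/MYC and WT thymus for the cytosolic gene (vertical axis) against that of the mitochondrial gene (horizontal axis) for the 12 one-to-one pairs, named by the cytosolic gene. Filled points are the 5 pairs whose within-array difference did not overlap between the groups, the dashed line marks equal change, and 9 points lie above it with Yars, Nars and Cars below.

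Within the cytosolic group the enzymes of the multisynthetase complex had 4 of 7 measured genes called (Eprs, Kars, Lars and Rars; median log2 fold change 0.54) and the other cytosolic enzymes 2 of 11 (Gars and Sars; median 0.44), where 2.27% of all genes were called higher. After 75th percentile centering no gene of either set was called. Dars, also of the complex but without a probe set of its own, had 0.40 on the probe set that the study's list names (adjusted p = 0.06 from limma). The 3 scaffold genes of the complex had values of the same size. Eef1e1 rose by 0.73 (standard error 0.082, adjusted p = 0.0159), Aimp2 by 0.62 (standard error 0.098, adjusted p = 0.0347), while the value of Aimp1 was 0.44 (adjusted p = 0.154). By catalytic fold, the median was 0.46 for the cytosolic enzymes of class I and 0.49 for those of class II, with Eprs in both, and 0.27 and 0.41 for the mitochondrial ones. Gars and Kars, which serve both compartments, were both called.

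Genes that act beside the synthetases were counted in the same way. The 7 genes for the ends, export and proofreading of tRNA had a median log2 fold change of 0.62. Of these 4 were higher at an adjusted p under 0.05, against 2.27% of all genes. They were Dtd1 (0.87), which removes D-amino acids from tRNA, the nuclear tRNA exporter Xpot (0.83), the tRNA 3′ nuclease Elac2 (0.62) and Aarsd1 (0.56), which edits mischarged alanine tRNA. Trnt1, which adds the CCA end, had 0.90 with an adjusted p of 0.0558, and the values of Prorsd1 (0.16, adjusted p = 0.374) and Dtd2 (0.098, adjusted p = 0.532) were small. Of 10 mitochondrial translation factors only Mrrf, which recycles the ribosome, was called (0.50, adjusted p = 0.0492), where 2.27% of all genes were. All 10 had positive values (median 0.39), as had 40.2% of all genes. None of the 3 genes of the amidotransferase that makes glutamine tRNA in mitochondria, where no glutaminyl enzyme exists, was called (0.44 to 0.46, adjusted p from 0.0606 to 0.131), nor any of 3 measured factors that bring charged tRNA to the cytosolic ribosome (0.12 to 0.38). At an unadjusted p under 0.05 from limma 5 of the 7 tRNA genes and 7 of the 10 mitochondrial factors were higher. So were all 3 amidotransferase genes and 2 of the 3 delivery factors, where 13.2% of all genes were.

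In 6 members the promoter window overlaps that of a gene on the opposite strand. Kars had a log2 fold change of 0.52 and its neighbor Terf2ip of 0.15 (adjusted p = 0.467), and Sars2 had 0.43 and Mrps12, for a protein of the mitochondrial ribosome, 0.097 (adjusted p = 0.508). In both, the difference within arrays (0.38 and 0.33) did not overlap between RUNX2/MYC and WT, which was also so for Rars2 with Orc3 (0.18) and Yars with S100pbp (0.26; exact permutation test, p = 0.1 for each, the smallest possible). Ears2 with Ubfd1 and Fars2 with Lyrm4 overlapped, and there the neighbor had the larger value (0.33 and 0.32). Of the 7 called members 5 have a window, and of the motifs above it held the ATF4-type core in Gars, the RUNX-type site in Yars2 and the E-box in none.

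Calls over the whole array, and those of the 7 genes with them, changed with the arrays kept in the fit, and the cause was not tested. All 7 ended without RUNX2/MYC replicate 2 or 3 or without WT replicate 1 or 2 (adjusted p from 0.0707 to 0.222), while their log2 fold changes there were 0.48 to 0.86. In these 4 settings 3 to 4 of all probe sets were called higher, against 596 with all arrays. Without RUNX2/MYC replicate 1 all 7 were called, and without WT replicate 3 those of Eprs, Gars, Rars and Yars2. RUNX2/MYC replicate 1 was the lowest of its group in 30 of the 34 genes and WT replicate 3 the highest of its group in 21. After centering of the arrays on the 75th percentile no cytosolic gene was called, Yars2 was, and the medians were 0.39 and 0.23. This centering shifts all probe sets alike, by -0.097, so relative to the median of all probe sets the medians had to stay at 0.53 and 0.38. Relative to that median they were 0.41 and 0.33 after quantile normalization and 0.35 and 0.29 after cyclic loess.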

How the data were processed

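RNA of whole thymus was measured on 6 Affymetrix MoGene-1 arrays, 3 for each genotype, labelled as biological replicates. The log2 signals were used as the authors deposited them. The submitters' processing notes name RMA and Affymetrix Expression Console 1.4, and according to the methods Partek Genomics Suite was used, with signals adjusted for GC content. Of 35556 probe sets, the platform annotation pairs 21789 with 1 symbol, 1621 with several and 12146 with none. The probe set of Runx2 was named through the study's own list. The genotypes were compared with limma 3.58.1 (lmFit and eBayes, in R 4.3.3) over all probe sets, with Benjamini-Hochberg adjustment and a threshold of 0.05. The fit was tested on simulated data with independent noise for each probe set and array. Such data lack deviations that probe sets share within an array, so the test does not bear on the stability of the calls. The number of arrays limits the precision: an exact permutation test of 3 against 3 cannot give a p below 0.1.

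Members and lists were chosen with earlier results of these data known. Array values are given for each member past the threshold and for the 3 of each compartment with the largest log2 fold change among the rest. Alternatives were median and 75th percentile centering, quantile normalization, cyclic loess, a filter on dim probe sets, probe sets of 1 gene, mean over probe sets, the methods' per-gene test (with q values or Benjamini-Hochberg adjustment), array weights, a replicate block and leaving out each array. Promoter windows came from RefSeq (GRCm38.p6), for 25 of the 34 genes. A planned comparison of protein sequences was not run.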

Additional observations from a re-analysis of the deposited data

How the results depend on the processing

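The log2 fold change of all 34 genes was positive under all 17 alternatives. Several of these could not change the sign. The filter on dim probe sets, probe sets of 1 gene, the methods' tests and the replicate block leave each member's fold change as reported. The mean over probe sets alters only that of Iars. The lowest value was 0.010, for Fars2 without WT replicate 1. The counts were not stable. As reported, 596 probe sets were higher and 45 lower, with 6 cytosolic and 1 mitochondrial gene called higher. Centering on the 75th percentile gave 209 higher probe sets and 0 cytosolic genes (limma; all 18 at an unadjusted p under 0.05 as reported), and centering on the median 915 higher. Cyclic loess gave 124 lower, 2 cytosolic genes and a difference of medians between compartments of 0.064 in place of 0.16, and quantile normalization 98 lower and 0.076. Without dim probe sets 85 were lower. With probe sets of 1 gene there were 1236 higher and 149 lower, 13 cytosolic and 5 mitochondrial, and with the mean of a gene's probe sets 1080 and 126 genes, 13 and 5. The methods' test gave 1213 and 247 with 4 mitochondrial genes by q values, and 162 higher with 3 cytosolic genes by Benjamini-Hochberg adjustment. Array weights, whose estimation stopped before it converged, gave 9165 and 12137 with 18 and 16. Leaving out 1 array gave 3 to 872 higher, 0 to 718 lower, 0 to 7 cytosolic and 0 to 1 mitochondrial genes, and a difference of medians of 0.12 to 0.17. The cause of these changes was not tested.

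With the replicate number as a block (replicate block) 1654 probe sets were higher and 763 lower, with 9 cytosolic and 4 mitochondrial genes. Whether the numbers pair the arrays could not be told from the deviations of the arrays from their group means. Those of same-numbered arrays correlated at 0.50, -0.15 and 0.61 for replicates 1 to 3, and 0.50 and 0.61 were the largest values of all combinations. WT replicate 2 correlated best with RUNX2/MYC replicate 1 (0.37). Deviations from a group mean constrain one another, so these correlations cannot decide the question.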

Other observations

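Dars and Aars lie outside the comparison. The probe set that the study's list names Dars, the aspartyl enzyme of the multisynthetase complex, had log2 signals of 10.88, 10.95 and 10.91 in RUNX2/MYC and of 10.54, 10.50 and 10.52 in WT thymus (log2 fold change 0.40, standard error 0.078, adjusted p = 0.06 from limma). That list was drawn from genes changed on these arrays. The probe set shared by Aars and the exosome gene Exosc6 had 8.90, 9.03 and 9.05 against 8.68, 8.85 and 8.92, with overlap between the groups (0.18, adjusted p = 0.316). Its signal cannot be assigned to either gene.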
